A study of Mus musculus with 12 samples.

Results

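Interferon response genes of the mouse duodenum were followed library by library: 39 genes that interferons are known to induce, taken by symbol from a fixed list. All 39 were listed in both deposited tables, among 26121 genes that stand in both. They comprise a type I class of 11 genes (Ifit, Oas, Oasl and Mx), a gamma class of 7 genes (Gbp, Irgm and Igtp) and 21 other members. RNA was sequenced in 12 libraries from C57BL/6N mice, an inbred strain with no engineered allele named in the labels, in 4 groups of 3 libraries. The HFD PCN group ate a high-fat diet and then received pregnenolone 16α-carbonitrile (PCN), an agonist of the rodent pregnane X receptor, by intraperitoneal injection at 50 mg/kg once daily for 4 days. The HFD Vehicle group ate the same diet and received vehicle, 30% DMSO in corn oil, over the same 4 days. The HFD group ate the high-fat diet with no treatment listed, and the Chow group ate regular chow. In all 4 groups the diet began at 6 weeks of age and lasted 18 weeks.

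Interferons are secreted proteins that put cells into an antiviral state. Type I interferons signal through Ifnar1 and Ifnar2 and act on the interferon-stimulated response element (ISRE), bound by a complex that holds Stat2 and Irf9. Interferon gamma, made mainly by T and NK cells, signals through Ifngr1 and Ifngr2 and acts on the gamma-activated site (GAS). Gbp and Irg genes are known above all as targets of interferon gamma and Ifit, Oas and Mx genes as targets of type I interferon, although each kind can respond to both. In the gut epithelium type III interferon, acting through Ifnlr1, also induces Ifit, Oas and Mx genes.

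Both elements can be read in the DNA before these genes. RefSeq promoters of GRCm38.p6 were at hand for 29 of the 39 members and were searched over the 250 bases before the gene's start. The ISRE was written as GAAA, any 2 bases and GAAA, which on the other strand reads TTTC, any 2 bases and TTTC. The GAS was written as TTCNNNGAA, which is its own reverse complement. A match to the ISRE stood in 16 of the 29 members (55.2%), against 2.98% of all 32851 promoters in the same table. Members were counted by gene, with a match in any of the gene's promoters, and the share over the table by promoter, so the units differ. By class, the ISRE was found for 5 of 8 type I genes, for 6 of 6 gamma genes and for 5 of 15 other genes. A match to the GAS stood in 7 of the 29 members (24.1%), against 7.02% of all promoters. By class it was found for 2 of 8 type I, 3 of 6 gamma and 2 of 15 other genes. Both classes held ISRE matches in this window, and a match describes letters, not a bound site. The following 120 bases before the start are shown for 2 type I and 2 gamma members as examples of each arrangement, 5′ to 3′ on the gene's strand, with ISRE and GAS matches in capitals.
Ifit1, chr19:34640751-34640870, plus strand: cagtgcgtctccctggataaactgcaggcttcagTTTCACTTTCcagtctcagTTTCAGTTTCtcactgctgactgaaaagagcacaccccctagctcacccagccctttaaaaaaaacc
Oas1a, chr5:120907526-120907645, minus strand: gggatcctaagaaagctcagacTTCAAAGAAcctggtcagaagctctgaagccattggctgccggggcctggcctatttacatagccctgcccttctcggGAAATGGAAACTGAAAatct
Igtp, chr11:58199436-58199555, plus strand: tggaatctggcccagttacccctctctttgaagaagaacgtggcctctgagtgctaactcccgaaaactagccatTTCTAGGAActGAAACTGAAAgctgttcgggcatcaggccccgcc
Gbp7, chr3:142530216-142530335, plus strand: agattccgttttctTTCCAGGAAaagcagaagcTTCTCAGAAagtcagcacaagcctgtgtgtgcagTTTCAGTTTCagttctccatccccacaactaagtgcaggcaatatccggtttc
The Ifit1 stretch holds 2 ISRE matches on the reverse strand and no GAS, and ends 18 bases before the RefSeq start, where the deposited table begins the gene. The Oas1a stretch holds 2 ISRE matches that overlap, just before the start, and 1 GAS farther up. In Igtp the GAS and the ISRE lie next to each other. In Gbp7 there are 2 GAS matches upstream of 1 ISRE.

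Total counts ranged from 4676718 in HFD Vehicle 55 to 20684369 in HFD PCN 5, and the 39 members took 0.0539% (HFD Vehicle 23) to 0.197% (HFD 30) of them. Levels are counts per 1000000 counts (CPM) after TMM scaling over all 12 libraries, and within a group they are given in the order of the library numbers, 5, 11 and 27 for HFD PCN, 23, 50 and 55 for HFD Vehicle, 4, 30 and 38 for HFD, and 8, 17 and 19 for Chow. The extraction protocol names liver although the tissue label is duodenum. The enterocyte gene Vil1 stood at 1172 to 2390 CPM and the hepatocyte gene Alb at 0.107 to 1.16 CPM. By their sums the whole marker lists were less far apart. The 12 enterocyte genes summed to 13836 to 42311 CPM and 8 hepatocyte genes to 3868 to 14798 CPM. Alb therefore does not stand for its whole list. HFD Vehicle 23 stood apart from the other libraries, with 33.6% of its counts in mitochondrial ribosomal RNA against 8.69% to 19.2% elsewhere. Hsp90aa1, a chaperone gene, reached 1832 CPM in library 23 and 1487 CPM in library 50 of the HFD Vehicle group, against 62.4 to 424 CPM in the rest. Nothing in the labels says that the libraries of a group came from separate animals, so the p-values may measure only the spread between these samples. In bulk tissue, fewer cells of a type and less RNA per cell cannot be told apart.

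The interferon response was most uneven inside the HFD group. HFD 30 held the highest level of the 3 HFD libraries for all 39 members and the highest of all 12 libraries for 28 of them: 11 of 11 in the type I class, 2 of 7 in the gamma class and 15 of 21 others. Over the 14800 genes with a mean of at least 1 CPM, the highest level of all 12 libraries stood in HFD 30 for 11.98%. For ranks within the HFD group alone no share over all genes was taken. With levels over the library's own total, without TMM, HFD 30 was the highest of all 12 libraries for 23 of 39 members. The ratio of HFD 30 to the mean of HFD 4 and HFD 38 had a median of 2.72 over the type I class (2.09 to 4.55), 1.59 over the gamma class (1.28 to 2.44) and 1.01 over the 14800 genes. HFD 4, the shallowest of the 3 with 4925123 counts, lay at the other end and was the lowest of the group for 35 members. Its 12 mature enterocyte markers summed to 21455 CPM, against 37398 CPM in HFD 30 and 42311 CPM in HFD 38. Mitochondrial ribosomal RNA took 19.2% of the counts in HFD 4, 14.4% in HFD 30 and 9.05% in HFD 38. The part of these differences in the members' values was not tested. HFD Vehicle 23 was the lowest of all 12 libraries for 26 of 39 members, where 25.3% of the 14800 genes had their lowest level in that library.

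Set against the 3 Chow libraries one at a time, the HFD libraries disagreed in the type I class and were alike in part of the gamma class. HFD 30 lay above all 3 Chow libraries for 11 of 11 type I members, HFD 38 for 5 and HFD 4 for 1. HFD 4 lay below all 3 Chow libraries for 9 of 11 type I members, HFD 38 for 1 and HFD 30 for 0. In the gamma class HFD 4 and HFD 38 each lay below all 3 Chow libraries for 6 of 7 members, whereas HFD 30 was below for 2, above for 2 and inside the Chow range for the rest. Of the 14800 genes, HFD 4, HFD 30 and HFD 38 lay above all Chow libraries for 29.9%, 34.8% and 28.9% and below for 37.1%, 28.3% and 21.3%.

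**Figure D1:**
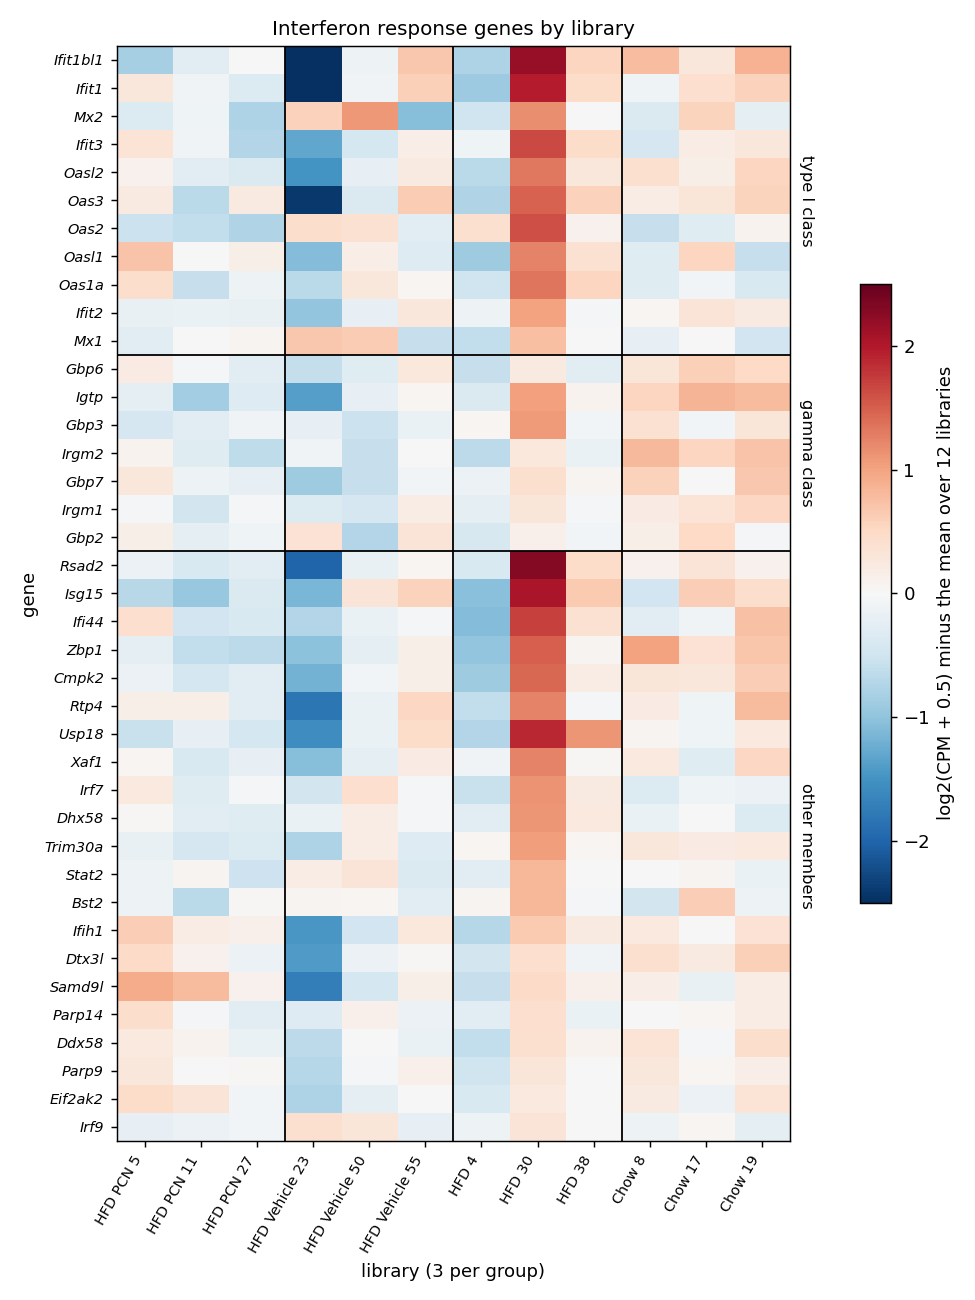
Heat map of log2(CPM + 0.5) minus the gene's mean over 12 libraries, with 39 genes in rows by class and the 12 libraries in columns by group. HFD 30 has the highest level of the 12 libraries for 28 of 39 genes and HFD Vehicle 23 the lowest for 26.

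The diet comparison, HFD against Chow, asks how 18 weeks of high-fat feeding went with the interferon response. Type I members had higher means on HFD, gamma members mostly lower means, and none of the differences passed the test. Of 38 members tested, 0 passed edgeR's quasi-likelihood test at a Benjamini-Hochberg adjusted p under 0.05, where 10 of 15278 genes (0.0655%) did. Gbp6 was too low to be tested. At an unadjusted p under 0.05 there were 3 of 38 members higher (Oas2, Oas1a and Dhx58), against 5.75% of all genes, and 1 lower (Irgm2), against 4.59%. DESeq2 called 0 members and put 4 under an unadjusted p of 0.05, and the authors' deposited table had 0 members among its 106 genes under 0.05. The groups did not overlap for Oas2, higher on HFD, and for Irgm2, lower on HFD, or 1 of 38 in each direction, against 8.34% of genes higher and 7.5% lower. The median log2 fold change was 0.49 over the type I class (11 of 11 positive), -0.34 over the gamma class (1 of 6 positive), 0.17 over the other members (13 of 21 positive) and 0.0046 over all genes, of which 50.5% were positive. Without HFD 30 the median of the type I class was -0.23 (4 of 11 positive) and that of the gamma class -0.49 (0 of 6 positive).

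Ifit proteins bind viral RNA and block its translation. Ifit1 (ENSMUSG00000034459, chromosome 19, 34640871 to 34650009, plus strand) stood at 34.1, 26.1 and 21.8 CPM (HFD PCN), 3.57, 26.2 and 42.3 CPM (HFD Vehicle), 14.6, 110.2 and 38.7 CPM (HFD) and 25.97, 37.5 and 41.9 CPM (Chow). HFD 30 exceeded every other library by more than a factor of 2, and HFD Vehicle 23 and HFD 4 were the lowest. The log2 fold change of HFD over Chow was 0.64 (SE 0.71, adjusted p = 0.780), and it was -0.36 without HFD 30. Ifit3, of the same gene family, stood at 6.53, 4.75 and 2.85 CPM (HFD PCN), 1.78, 3.63 and 5.76 CPM (HFD Vehicle), 4.71, 17.1 and 7.14 CPM (HFD) and 3.69, 5.83 and 6.25 CPM (Chow). HFD 38 and HFD 30 were above the Chow libraries and HFD 4 inside their range, with a log2 fold change of 0.90 (SE 0.42, adjusted p = 0.494), which was 0.21 without HFD 30. Of the remaining Ifit members, Ifit2 stood at 0.22 (SE 0.33) and Ifit1bl1 at 0.48 (SE 0.74) on the same log2 scale. Ifit1bl1 ran from 2.35 CPM in HFD Vehicle 23 to 126 CPM in HFD 30, 53.6 times the lowest level and the widest such ratio of the 39 members.

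Oas enzymes make short oligoadenylates that switch on the RNA-cutting enzyme RNase L. Oas2 (ENSMUSG00000032690, chromosome 5, 120730333 to 120749853, minus strand) stood at 3.16, 3.00 and 2.65 CPM (HFD PCN), 6.78, 6.46 and 3.97 CPM (HFD Vehicle), 6.51, 15.8 and 5.26 CPM (HFD) and 3.10, 3.84 and 5.16 CPM (Chow). It was the only type I member whose HFD and Chow libraries did not overlap, although HFD 38 and Chow 19 were nearly level. The means were 9.20 ± 5.78 CPM in HFD and 4.03 ± 1.05 CPM in Chow (SD, n = 3 each), a log2 fold change of 1.18 (SE 0.41, adjusted p = 0.412), which was 0.51 without HFD 30. Oas1a stood at 10.2, 4.89 and 6.77 CPM (HFD PCN), 4.49, 9.23 and 7.75 CPM (HFD Vehicle), 5.16, 19.6 and 11.03 CPM (HFD) and 5.96, 7.10 and 5.58 CPM (Chow). Its log2 fold change was 0.99 (SE 0.38, adjusted p = 0.436), and 0.45 without HFD 30, with HFD 30 and HFD 38 above the Chow libraries and HFD 4 below them. Oasl1, which in mice is known to hold back translation of Irf7, stood at 86.96, 52.7 and 58.8 CPM (HFD PCN), 24.6, 59.2 and 42.1 CPM (HFD Vehicle), 28.5, 125 and 69.1 CPM (HFD) and 42.6, 76.7 and 35.4 CPM (Chow). HFD 4 was below all 3 Chow libraries and HFD 30 above them, with a log2 fold change of 0.53 (SE 0.56). Oasl2 stood at 45.3, 33.99 and 32.3 CPM (HFD PCN), 14.4, 35.97 and 48.7 CPM (HFD Vehicle), 25.8, 105 and 51.1 CPM (HFD) and 55.03, 46.5 and 61.1 CPM (Chow). It showed the same split, with a log2 fold change of 0.16 (SE 0.45) that was -0.47 without HFD 30, and Oas3 had 0.36 (SE 0.48).

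Mx proteins are dynamin-like GTPases that block viral replication, and C57BL/6 mice are known to carry a defective Mx1 allele. Mx1 stood at 7.23, 8.79 and 9.23 CPM (HFD PCN), 14.3, 13.98 and 5.76 CPM (HFD Vehicle), 5.61, 15.2 and 8.91 CPM (HFD) and 7.62, 8.81 and 6.19 CPM (Chow). HFD Vehicle 23 and 50 were nearly as high as HFD 30, whereas for Ifit1 and Ifit3 they were far below it. The log2 fold change of HFD over Chow was 0.44 (SE 0.32), and 0.0041 without HFD 30. Mx2, annotated as a polymorphic pseudogene, had 0.49 (SE 0.46) and was the highest in HFD 30 (7.45 CPM) and HFD Vehicle 50 (7.05 CPM).

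**Figure D2:**
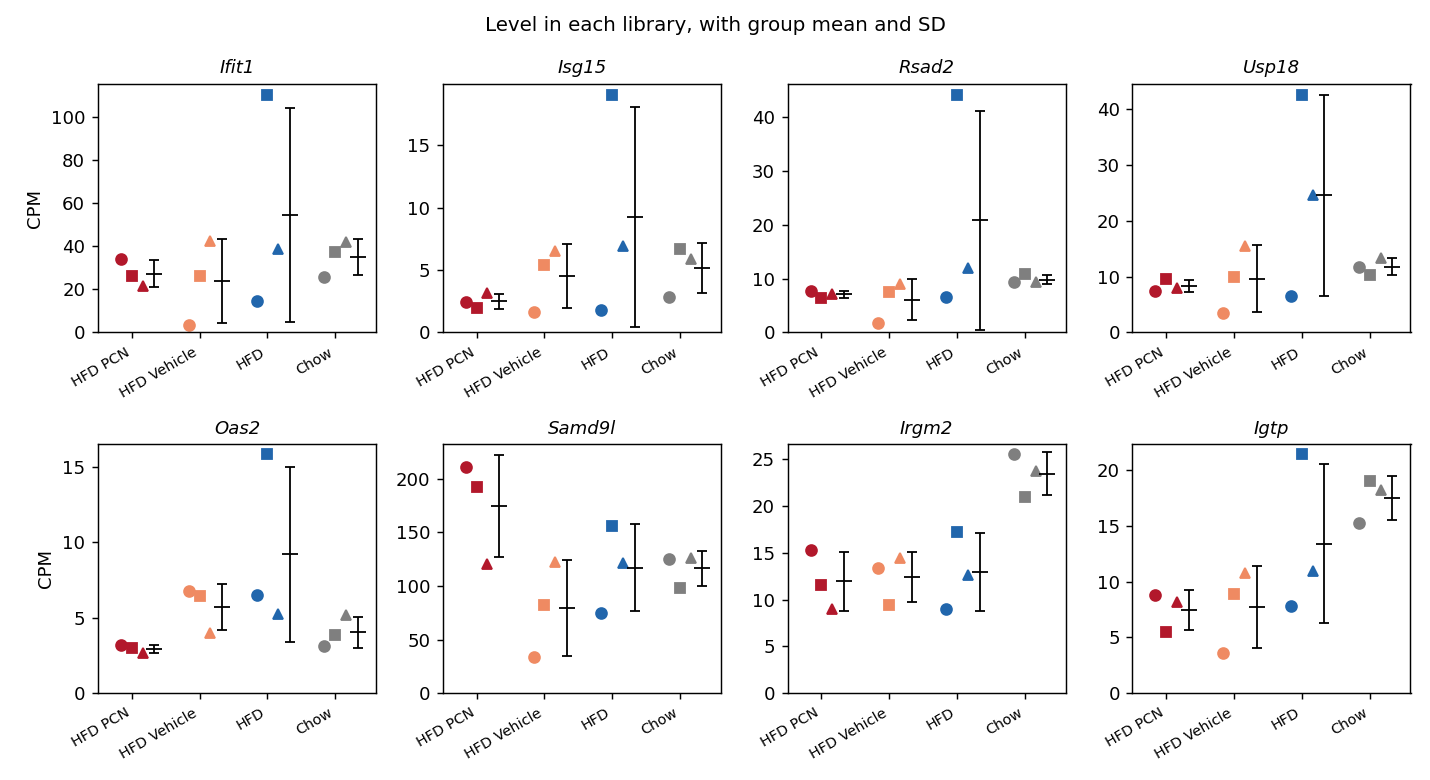
CPM of 8 members in each of the 12 libraries (points), with the mean and SD of the 3 libraries of a group (bars), groups on the horizontal axis. Ifit1, Isg15, Rsad2 and Usp18 have 1 HFD library (30) far above the others, Samd9l is highest in HFD PCN 5 and 11, and Irgm2 and Igtp are higher in Chow than in most HFD-fed libraries.

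Of the 6 gamma members tested 5 had a negative and 1 a positive log2 fold change of HFD over Chow, and 0 passed the test. Irgm2 (ENSMUSG00000069874, chromosome 11, 58199618 to 58222782, plus strand), an immunity-related GTPase that guards the cell's own membranes during attack on vacuoles that hold microbes, stood at 15.3, 11.6 and 9.03 CPM (HFD PCN), 13.4, 9.39 and 14.5 CPM (HFD Vehicle), 8.98, 17.2 and 12.7 CPM (HFD) and 25.6, 21.03 and 23.7 CPM (Chow). All 9 libraries from the high-fat diet were below the 3 Chow libraries. The means were 12.97 ± 4.14 CPM in HFD and 23.5 ± 2.30 CPM in Chow, a log2 fold change of -0.84 (SE 0.22, adjusted p = 0.271), the smallest p of any member in this comparison. The authors' deposited table also placed Irgm2 lowest among the members, with an adjusted p of 0.157. Igtp, its neighbour and a GTPase of the same kind, stood at 8.79, 5.44 and 8.15 CPM (HFD PCN), 3.64, 8.91 and 10.7 CPM (HFD Vehicle), 7.86, 21.4 and 10.9 CPM (HFD) and 15.2, 19.04 and 18.2 CPM (Chow). HFD 30 was above Chow while the other 8 libraries on the diet were below all 3, and the log2 fold change was -0.36 (SE 0.30), and -0.86 without HFD 30. Exons of Igtp and Irgm2 overlap on the same strand, and how reads in the overlap were counted was not given in the sources used here, so their separate values are uncertain. Irgm1 stood at 16.8, 12.5 and 16.7 CPM (HFD PCN), 13.6, 12.9 and 19.9 CPM (HFD Vehicle), 14.8, 21.5 and 16.7 CPM (HFD) and 20.1, 22.2 and 25.1 CPM (Chow). HFD 30 lay within the Chow range and HFD 4 and 38 below it, with a log2 fold change of -0.35 (SE 0.19).

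Gbp proteins are guanylate-binding GTPases that assemble on microbes and their vacuoles. Gbp2 stood at 12.4, 9.28 and 10.3 CPM (HFD PCN), 14.4, 6.46 and 13.9 CPM (HFD Vehicle), 8.30, 12.1 and 10.6 CPM (HFD) and 12.4, 15.8 and 10.7 CPM (Chow). The groups overlapped, with a log2 fold change of -0.30 (SE 0.22) for HFD over Chow, which was -0.14 without Chow 17. Gbp7 stood at 16.2, 12.1 and 11.3 CPM (HFD PCN), 6.92, 8.65 and 12.5 CPM (HFD Vehicle), 11.9, 17.6 and 13.8 CPM (HFD) and 19.8, 13.1 and 21.3 CPM (Chow). Chow 17 lay within the HFD range and the log2 fold change was -0.33 (SE 0.23), and between -0.50 without Chow 17 and -0.19 without Chow 19. Gbp3 stood at 5.58, 6.21 and 7.17 CPM (HFD PCN), 6.56, 5.07 and 6.76 CPM (HFD Vehicle), 7.86, 16.4 and 7.20 CPM (HFD) and 10.01, 7.25 and 9.53 CPM (Chow). It was the 1 tested gamma member with a positive log2 fold change, 0.24 (SE 0.31), and HFD 30 alone was above Chow. Gbp6, at 0.214 to 1.14 CPM and at most 17 counts in any library, was 0.224, 0.762 and 0.400 CPM in HFD and 0.834, 1.14 and 1.03 CPM in Chow. Gbp, Ifit, Oas and Irgm genes belong to families of similar sequence whose members can share reads.

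Markers of T and NK cells, the main makers of interferon gamma, were measured beside the gamma class. Their summed level over 17 genes was 47.8, 121 and 72.3 CPM in HFD and 239, 142 and 198 CPM in Chow. Of 15 markers tested, 14 had a negative log2 fold change, with a median of -1.16. By edgeR, 0 passed and 10 were lower at an unadjusted p under 0.05, against 4.59% of all genes. DESeq2 called 5 of them, among them Cd3g, Gzma and Gzmb, and 134 genes in the whole table. Markers at 0 counts numbered 1 in HFD 4 and 0 in the other 5 libraries. Markers of macrophages and monocytes, 14 genes, summed to 156, 174 and 199.9 CPM in HFD and 109, 176 and 109 CPM in Chow. Of the 14, 10 had a positive log2 fold change, and 6 were higher at an unadjusted p under 0.05, against 5.75% of all genes (Siglec1, Cx3cr1, Mrc1, C1qa, C1qb and C1qc). DESeq2 called 2, Siglec1 and Cx3cr1, and edgeR 1. It was Siglec1, which type I interferon is known to induce, with 7.86, 11.03 and 8.28 CPM in HFD and 2.98, 2.70 and 2.55 CPM in Chow, a log2 fold change of 1.73 (SE 0.25, adjusted p = 0.0481). Siglec1 was higher in each HFD library than in any Chow library. That includes HFD 4, which lay below all 3 Chow libraries for 9 of 11 type I members. The part of either marker list in the members' values was not tested. Interferon gamma itself (Ifng) had 0 to 2 counts in each of the 12 libraries, too few for a comparison.

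The difference between the classes was taken in each library as the mean log2(CPM + 0.5) of the type I class minus that of the gamma class. It was 0.541, 0.620 and 0.533 in HFD PCN, -0.118, 1.14 and 0.506 in HFD Vehicle, 0.392, 1.50 and 0.925 in HFD, and 0.0539, 0.379 and 0.196 in Chow. HFD averaged 0.939 ± 0.554 and Chow 0.210 ± 0.163 (SD, n = 3 each), a difference of 0.73. The groups did not overlap, but the lowest HFD and the highest Chow library were 0.0134 apart, and 0.000195 apart without TMM. Without HFD 30 the difference between HFD and Chow was 0.45. Taken singly, the type I score was 3.19, 5.12 and 3.99 in HFD and 3.61, 3.90 and 3.82 in Chow, and the gamma score was 2.80, 3.62 and 3.06 in HFD and 3.56, 3.52 and 3.63 in Chow. The gamma score of the HFD PCN libraries was 3.14, 2.81 and 2.89 and that of the HFD Vehicle libraries 2.68, 2.65 and 3.22. Apart from HFD 30, every library on the high-fat diet therefore had a lower gamma score than any Chow library. The counts of the 2 injected groups come from a separate table, and no test was made across it and the Chow group.

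**Figure D3:**
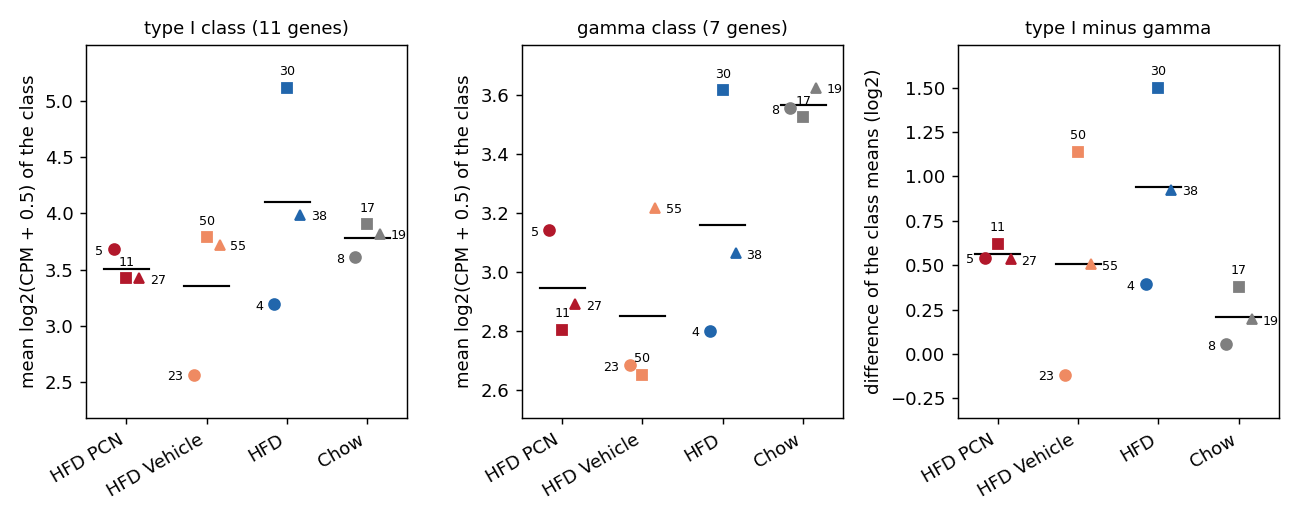
Mean log2(CPM + 0.5) of the 11 type I members (left) and the 7 gamma members (middle), and their difference (right), per library, with library numbers beside the points and lines at group means. HFD 30 is the highest library for the type I score (5.12), and the 3 Chow libraries and HFD 30 form the top of the gamma score (3.52 to 3.63).

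The ISG15 system tags proteins with a ubiquitin-like molecule. Isg15 (ENSMUSG00000035692, chromosome 4, 156199424 to 156200818, minus strand), the tag itself, stood at 2.41, 1.95 and 3.14 CPM (HFD PCN), 1.64, 5.39 and 6.56 CPM (HFD Vehicle), 1.80, 19.00 and 6.91 CPM (HFD) and 2.86, 6.68 and 5.89 CPM (Chow). The HFD group held the highest library and one of the lowest, HFD 4, whose level rested on 8 counts. The log2 fold change of HFD over Chow was 0.90 (SE 0.71), and -0.11 without HFD 30. Usp18, which removes Isg15 and quenches the type I receptor, stood at 7.38, 9.56 and 8.05 CPM (HFD PCN), 3.50, 9.87 and 15.5 CPM (HFD Vehicle), 6.51, 42.6 and 24.6 CPM (HFD) and 11.7, 10.4 and 13.4 CPM (Chow). HFD 30 and HFD 38 were above every library of the other groups, and HFD 4 was below Chow. The log2 fold change was 1.07 (SE 0.55), and 0.46 without HFD 30.

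Stat2 and Irf9 carry the signal from the receptor. Stat2, a subunit of the ISRE-binding complex, stood at 46.4, 53.04 and 35.2 CPM (HFD PCN), 58.1, 63.5 and 39.3 CPM (HFD Vehicle), 42.2, 90.4 and 51.3 CPM (HFD) and 50.5, 53.00 and 45.3 CPM (Chow). Irf7, which amplifies interferon production, stood at 53.9, 36.5 and 44.4 CPM (HFD PCN), 32.8, 60.95 and 43.9 CPM (HFD Vehicle), 30.8, 99.8 and 52.97 CPM (HFD) and 35.5, 42.3 and 40.9 CPM (Chow). For both, HFD 30 was above the Chow libraries and HFD 4 below them, and HFD over Chow gave a log2 fold change of 0.30 (SE 0.24) for Stat2 and 0.63 (SE 0.36) for Irf7. Without HFD 30 these were -0.0719 for Stat2 and 0.10 for Irf7. Irf9, which gives that complex its DNA contact, ran only from 37.5 CPM in Chow 19 to 57.9 CPM in HFD Vehicle 23, the narrowest ratio of highest to lowest level among the members (1.54), with a log2 fold change of 0.17 (SE 0.16).

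Sensors of foreign nucleic acid also differed by library. Zbp1, which detects Z-form nucleic acid and can start necroptosis, stood at 6.38, 4.82 and 4.71 CPM (HFD PCN), 3.50, 6.46 and 8.54 CPM (HFD Vehicle), 3.59, 22.5 and 8.00 CPM (HFD) and 15.96, 9.95 and 12.7 CPM (Chow). HFD 30 was above all 3 Chow libraries and HFD 4 and 38 below them, and the log2 fold change was -0.14 (SE 0.56), and -1.06 without HFD 30. Dhx58, a regulator of the RIG-I-like receptors, stood at 6.48, 5.09 and 5.01 CPM (HFD PCN), 5.56, 7.26 and 6.16 CPM (HFD Vehicle), 5.16, 14.3 and 7.60 CPM (HFD) and 5.60, 6.25 and 4.92 CPM (Chow). HFD 30 and 38 were above Chow, with a log2 fold change of 0.73 (SE 0.33), which was 0.24 without HFD 30. Eif2ak2, the kinase PKR that stops translation on double-stranded RNA, stood at 83.3, 76.5 and 58.4 CPM (HFD PCN), 35.3, 51.8 and 61.00 CPM (HFD Vehicle), 46.7, 72.6 and 61.3 CPM (HFD) and 71.6, 54.7 and 76.8 CPM (Chow). Its log2 fold change of HFD over Chow was -0.18 (SE 0.19). The RNA helicases Ddx58 (RIG-I) and Ifih1 (MDA5) ran from 40.9 to 88.4 CPM and from 34.3 to 149 CPM, and their log2 fold change of HFD over Chow was -0.25 (SE 0.23) for Ddx58 and -0.06 (SE 0.28) for Ifih1.

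Among antiviral effectors, Rsad2 (viperin), which makes a chain-terminating ribonucleotide, stood at 7.69, 6.49 and 7.07 CPM (HFD PCN), 1.78, 7.53 and 8.94 CPM (HFD Vehicle), 6.51, 44.05 and 11.9 CPM (HFD) and 9.29, 10.8 and 9.35 CPM (Chow). HFD 30 was 4.49 times the Chow mean while HFD 4 was below Chow, and the log2 fold change was 1.12 (SE 0.67), and -0.0328 without HFD 30. Trim30a, a ring-finger protein known in mice to dampen Toll-like receptor signalling, stood at 17.5, 14.9 and 15.6 CPM (HFD PCN), 11.6, 22.8 and 15.9 CPM (HFD Vehicle), 20.6, 41.9 and 20.6 CPM (HFD) and 24.5, 23.3 and 23.7 CPM (Chow). HFD 30 was above all other libraries, HFD 4 and 38 were below Chow, and the log2 fold change was 0.22 (SE 0.25). Samd9l, which restricts poxviruses, stood at 211, 192 and 121 CPM (HFD PCN), 33.5, 81.98 and 123 CPM (HFD Vehicle), 74.5, 156 and 121 CPM (HFD) and 125, 97.8 and 126 CPM (Chow). The Chow libraries lay within the HFD range, with a log2 fold change of -0.000905 (SE 0.23). Scaled by length, its mean level over the 12 libraries was 22.5 CPM per kilobase of exon, near that of Oasl1 at 22.4, and Gbp6 had the lowest of the members with 0.105. The remaining effectors Ifi44, Cmpk2, Rtp4, Bst2 and Xaf1 had log2 fold changes of HFD over Chow between 0.09 (Rtp4) and 0.68 (Ifi44), and each had its highest level in HFD 30. The ADP-ribosylation genes Parp9, Parp14 and Dtx3l, of which Parp9 and Dtx3l form one complex, had log2 fold changes of -0.21, -0.06 and -0.42. Exons of Parp9 and Dtx3l overlap on opposite strands, and the strand setting of the counting was not given in the sources used here, so reads in the overlap cannot be told apart. In all 15 members have exons that overlap another gene's, among them Irf9 (Rnf31, same strand), Irf7 (Phrf1), Usp18, Dhx58, Oasl1, Eif2ak2, Gbp7 and Parp14, and their values carry the same doubt.

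**Figure D4:**
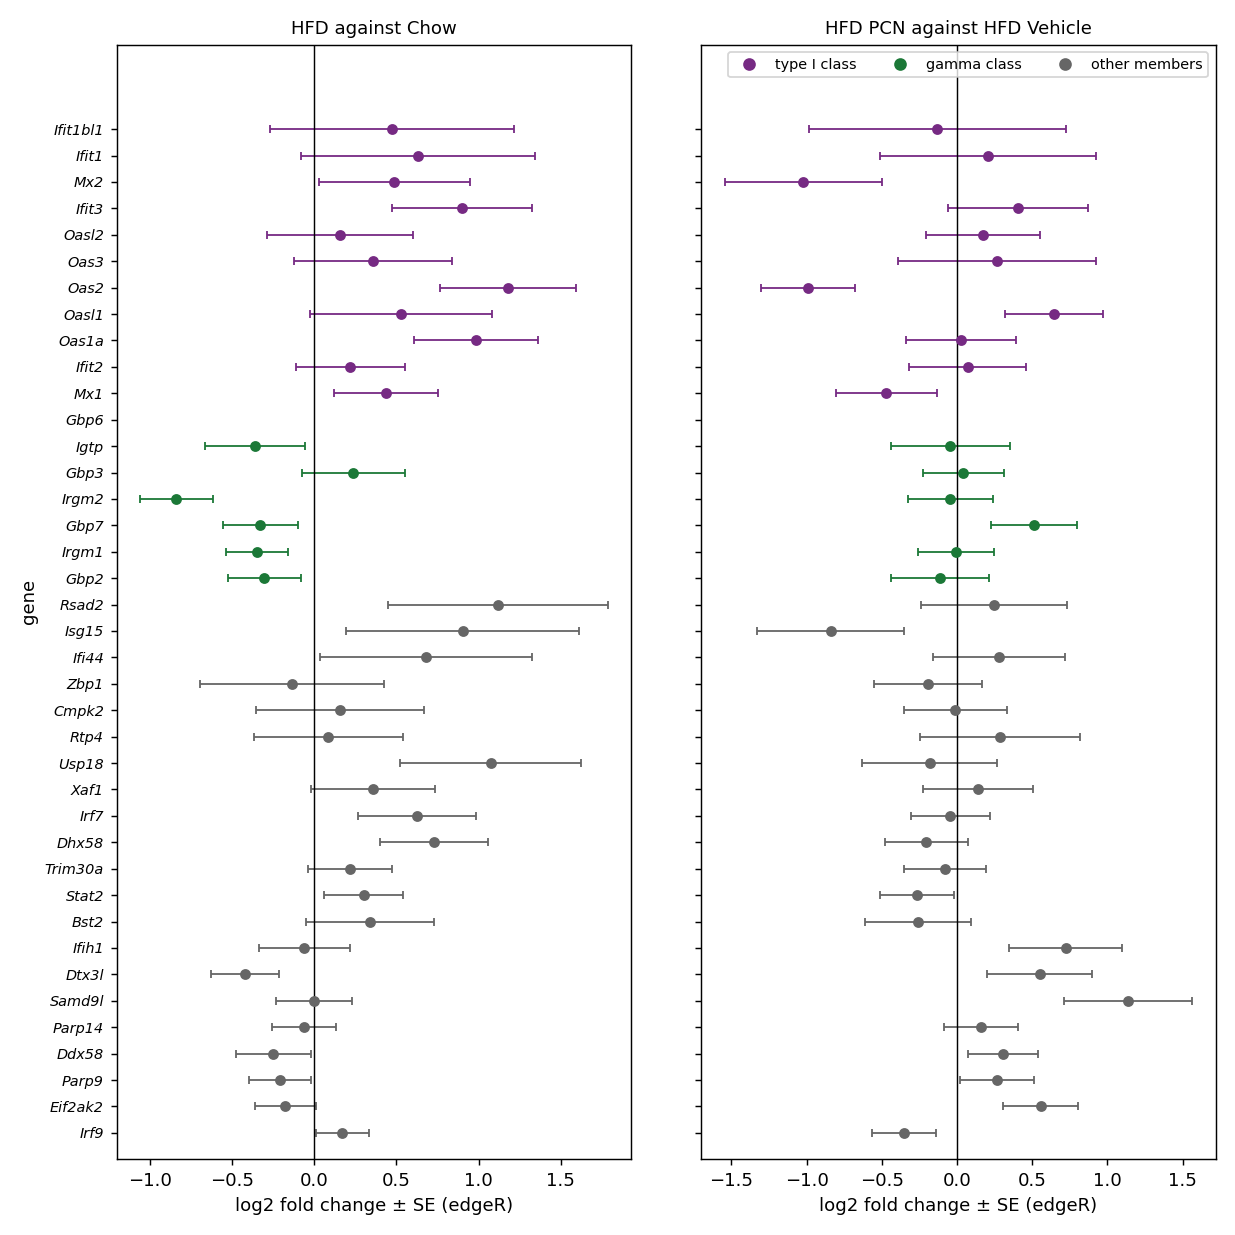
Log2 fold change with its SE from edgeR's quasi-likelihood fit for each tested member, HFD against Chow (left) and HFD PCN against HFD Vehicle (right), coloured by class, with no value for Gbp6, which was not tested. On the left 11 of 11 type I members lie above 0 and 5 of 6 gamma members below it, and on the right both classes lie on either side of 0.

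The drug comparison, HFD PCN against HFD Vehicle, asks what PCN adds on the high-fat diet. Its 3 HFD PCN libraries were close together and the HFD Vehicle libraries far apart. The type I score was 3.68, 3.43 and 3.43 in HFD PCN and 2.57, 3.79 and 3.72 in HFD Vehicle. Of 38 members tested, 0 passed edgeR's test, where 10 of 16110 genes (0.0621%) did. At an unadjusted p under 0.05, 1 member was higher (Samd9l), against 6.46% of all genes, and 1 lower (Oas2), against 11.5%. DESeq2 called 0 members, with 3 at an unadjusted p under 0.05, and the authors' deposited table had 0 members among its 216 genes under 0.05. The groups did not overlap for 1 member, Oas2, lower with PCN, against 8.83% of genes lower and 11.2% higher. The median log2 fold change was 0.07 over the type I class (7 of 11 positive), -0.02 over the gamma class (2 of 6 positive), 0.14 over the other members and -0.01 over all genes, of which 49.0% were positive.

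Oas2 averaged 2.94 ± 0.263 CPM in HFD PCN and 5.74 ± 1.53 CPM in HFD Vehicle (SD, n = 3 each), and all 3 HFD PCN libraries were below all 3 HFD Vehicle libraries. Its log2 fold change was -0.99 (SE 0.31, adjusted p = 0.235), and it stayed between -1.16 and -0.46 in every alternative fit run. Samd9l averaged 175 ± 47.7 CPM and 79.4 ± 44.7 CPM in the same groups, with HFD PCN 27 just below HFD Vehicle 55. Its log2 fold change was 1.14 (SE 0.43, adjusted p = 0.248). The next by p were Eif2ak2, with a log2 fold change of 0.56 (SE 0.25, adjusted p = 0.283), and Oasl1, with one of 0.65 (SE 0.33, adjusted p = 0.312). On the same scale Isg15 had -0.84 (SE 0.49), Mx1 -0.47 (SE 0.34), Gbp7 0.51 (SE 0.29) and Ifit3 0.40 (SE 0.47). Without HFD Vehicle 23 the values were 0.76 for Samd9l, 0.35 for Eif2ak2, 0.36 for Oasl1, -1.27 for Isg15, -0.29 for Mx1, 0.33 for Gbp7 and 0.0493 for Ifit3. For Ifit1, Oasl2, Rsad2, Irf7, Stat2, Usp18, Zbp1, Gbp2, Igtp, Irgm1 and Irgm2 the log2 fold changes lay between -0.27 (Stat2) and 0.24 (Rsad2).

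The vehicle group rested on libraries of different kinds. HFD Vehicle 23 lay below all 3 HFD PCN libraries for 28 of 39 members, HFD Vehicle 50 for 10 and HFD Vehicle 55 for 5, where 40.6%, 35.8% and 29.6% of the 14800 genes did. They lay above all 3 HFD PCN libraries for 7, 14 and 17 members in the same order, where 40.2%, 34.2% and 22.2% of the genes did. HFD Vehicle 23 and 50, the libraries with the high Hsp90aa1 levels, were both above all HFD PCN libraries for 6 members, Mx1, Mx2, Oas2, Stat2, Irf9 and Bst2, or 15.4% of the members against 27.6% of the 14800 genes. Both were below all HFD PCN libraries for 8 members, or 20.5% of the members against 28.1% of the 14800 genes. The 5 members for which HFD Vehicle 55 was below all HFD PCN libraries were Mx1, Mx2, Irf9, Oasl1 and Ddx58. Without HFD Vehicle 55, the shallowest library, edgeR called 6 of 38 members, Samd9l, Ifih1 and Eif2ak2 higher and Oas2, Mx1 and Mx2 lower. The number of genes tested in the same fit is not given here, and 16110 were tested with all libraries. That fit called 3697 genes over the whole table. Calls in this fit were therefore not particular to the members. Markers of T and NK cells summed to 122, 133 and 93.9 CPM in HFD PCN and 20.0, 42.6 and 105 CPM in HFD Vehicle, with 16 of 16 tested log2 fold changes positive. Of these 16, 0 passed edgeR's test, 5 were higher at an unadjusted p under 0.05, against 6.46% of all genes, and DESeq2 called 0. Markers of mature enterocytes had 12 of 12 positive log2 fold changes, with a median of 0.54. Markers of Paneth cells, 10 genes, summed to 597, 275 and 391 CPM in HFD PCN and 2667, 1208 and 573 CPM in HFD Vehicle, and all 10 were highest of the 12 libraries in HFD Vehicle 23. All 10 had a negative log2 fold change at an unadjusted p under 0.05, against 11.5% of all genes, 0 passed edgeR's test, and DESeq2 called 6. The part of these markers in the members' values was not tested.

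The HFD libraries served as a second base. HFD Vehicle against HFD and HFD PCN against HFD share their libraries with each other and with the comparisons above, and join counts of both tables. In HFD Vehicle against HFD, 0 of 38 members and 0 of 16255 genes (0.0%) passed edgeR's test. Of these genes 953 were under an unadjusted p of 0.05 and 32 were called by DESeq2. At an unadjusted p under 0.05, 3 members were lower, Ifit3, Rsad2 and Gbp7, against 2.21% of all genes, and 0 were higher, against 3.65%, while DESeq2 called 0 members with 3 at an unadjusted p under 0.05. The groups did not overlap for 1 member, Gbp3, lower in HFD Vehicle, against 5.27% of genes lower and 4.39% higher. The log2 fold changes were -1.46 (SE 0.55) for Ifit3, -1.84 (SE 0.74) for Rsad2, -0.65 (SE 0.29) for Gbp7 and -0.79 (SE 0.37) for Gbp3, each with an adjusted p of 0.803. Without HFD 30 they were -0.74 for Ifit3, -0.65 for Rsad2 and -0.31 for Gbp3. The median was -0.82 over the type I class, -0.43 over the gamma class and 0.01 over all genes, with 4 of 38 members positive, against 50.7% of all genes. Without HFD 30 the median of the type I class was -0.21.

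In the comparison of HFD PCN with HFD, 0 of 38 members passed edgeR's test, where 52 of 15982 genes (0.325%) did. DESeq2 called 1 of 39 members, Oas2, and its calls over the whole table are given below with the other fits. At an unadjusted p under 0.05, edgeR put 10 members lower, against 9.85% of all genes, and 0 higher, against 8.38%. DESeq2 put 13 members under it, and no share over all genes is given for DESeq2. The groups did not overlap for 4 members, Oas2, Trim30a, Gbp3 and Ifit2, all lower in HFD PCN, against 12.1% of genes lower and 10.7% higher. Oas2 averaged 2.94 ± 0.263 CPM in HFD PCN and 9.20 ± 5.78 CPM in HFD (SD, n = 3 each), a log2 fold change of -1.65 (SE 0.38, adjusted p = 0.103), the smallest p of the members. The next were Trim30a at -0.80 (SE 0.26, adjusted p = 0.178), Igtp at -0.87 (SE 0.33, adjusted p = 0.215) and Isg15 at -1.95 (SE 0.70, adjusted p = 0.228). Without HFD 30 they were -0.99 for Oas2, -0.38 for Trim30a, -0.37 for Igtp and -0.94 for Isg15. The median log2 fold change was -0.75 over the type I class (0 of 11 positive), -0.17 over the gamma class and 0.0012 over all genes, of which 50.1% were positive. Without HFD 30 the median over the members tested was -0.0856, against -0.70 with it. Markers of macrophages and monocytes summed to 86.6, 74.5 and 136 CPM in HFD PCN and 156, 174 and 199.9 CPM in HFD, none at 0 counts in these libraries. Of these markers 14 of 14 had a negative log2 fold change and 0 passed edgeR's test. By an unadjusted p under 0.05, 6 were lower, against 9.85% of all genes, and DESeq2 called 4 markers (C1qa, C1qb, Csf1r and Mrc1). Their part in the members' values was not tested.

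**Figure D5:**
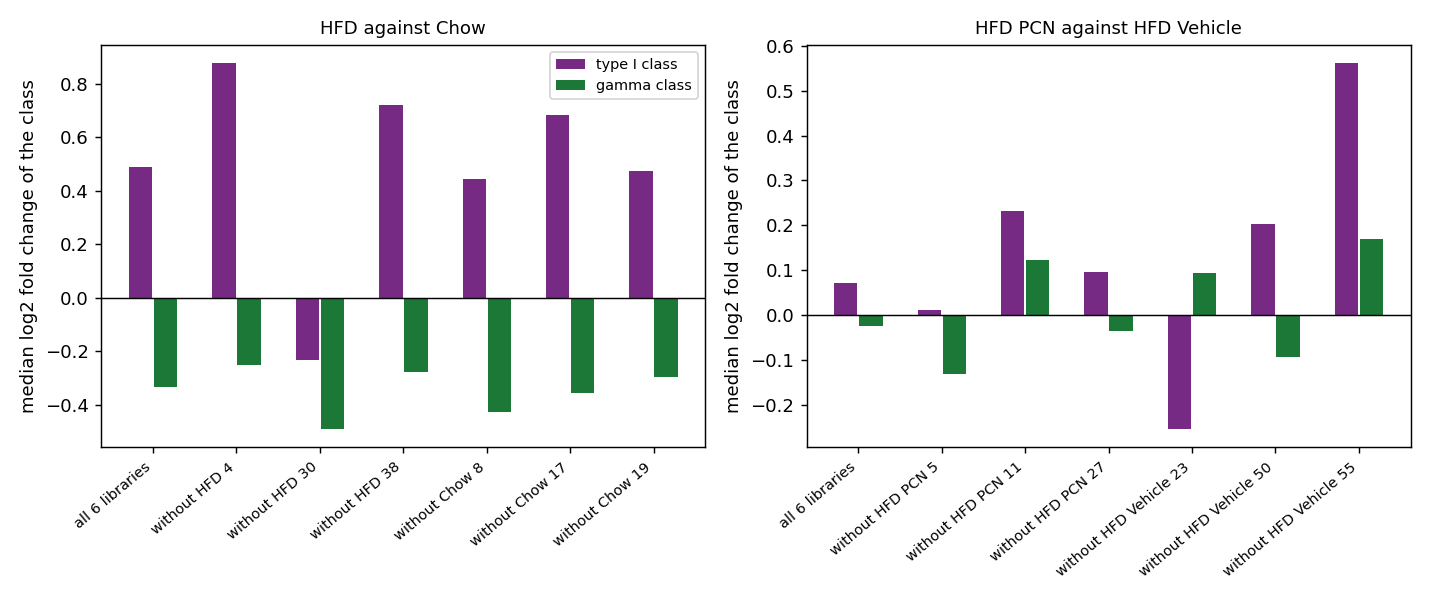
Median log2 fold change of the type I and the gamma class with all 6 libraries and with each library left out in turn, for HFD against Chow (left) and HFD PCN against HFD Vehicle (right). Without HFD 30 the type I median on the left is -0.23, against 0.49 with all libraries, while the gamma median is below 0 in each of the 7 fits.

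Genes around the members in the same pathways were read from 7 lists of 81 tested genes in each of the 2 main comparisons. By edgeR, 0 of them passed in HFD against Chow, with 1 higher and 8 lower at an unadjusted p under 0.05, against 5.75% of all genes higher and 4.59% lower, and DESeq2 called 1, Iigp1. In HFD PCN against HFD Vehicle, 0 passed, with 3 higher and 1 lower at an unadjusted p under 0.05, against 6.46% of all genes higher and 11.5% lower, and DESeq2 called 0. Of 14 ligand genes 7 were listed and 1 was tested, Il18, which helps to induce interferon gamma, whose log2 fold change was 0.31 (SE 0.16) for HFD over Chow and 0.82 (SE 0.32) for HFD PCN over HFD Vehicle. Among receptor genes Ifngr1 had 0.19 (SE 0.17) and Ifngr2 0.19 (SE 0.18) for the diet, and with PCN Ifnar1 had 0.53 (SE 0.27) and Il10rb 0.48 (SE 0.24). Of kinases and STATs, Stat4 had -1.09 (SE 0.41) and Tyk2 0.22 (SE 0.15) for the diet, and Jak2 0.54 (SE 0.31) and Stat4 0.55 (SE 0.51) for PCN.

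Of the transcription factors of the Irf family outside the members, Irf3 had log2 fold changes of 0.37 (SE 0.15) for the diet and -0.46 (SE 0.30) for PCN, Irf5 0.41 (SE 0.31) for the diet and Irf8 -0.36 (SE 0.26) for PCN. Of nucleic acid sensing genes, Tlr3 had -0.41 (SE 0.18) and Tlr9 0.61 (SE 0.46) for the diet, and Trim25 0.41 (SE 0.21) and Myd88 -0.42 (SE 0.23) for PCN. Of negative regulators, Ptpn2 had -0.54 (SE 0.16) and Nlrc5 -0.45 (SE 0.20) for the diet, and Socs3 -1.23 (SE 0.42) and Nlrx1 -0.54 (SE 0.43) for PCN. The list of 39 other tested interferon-induced genes had a median of -0.05 for the diet (18 positive, 21 negative), with 5 lower and 0 higher at an unadjusted p under 0.05. For PCN the median was 0.20 (26 positive, 13 negative), with 0 lower and 2 higher. Its 2 genes with the smallest p for the diet were the immunity-related GTPases Iigp1 at -1.05 (SE 0.23) and Tgtp2 at -1.38 (SE 0.42). For PCN they were the chemokine gene Cxcl9 at 1.49 (SE 0.53) and Ido1 at 0.92 (SE 0.36).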

How the data were processed

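Raw counts per gene were taken from the 2 tables that the authors deposited, HFD with Chow and HFD PCN with HFD Vehicle, which also hold the authors' own log2 fold change and p-value columns, quoted by that name alone. The submitters' processing notes list the tools HISAT2, HTSeq and DESeq2 and the build GRCm38 (mm10). For annotation release, versions and strand, "not given in the sources used here" applies. Members, lists and tests were chosen with earlier results of these data known. Each comparison was fitted on its 6 libraries over the whole table with edgeR 4.0.16 in R 4.3.3 (filterByExpr, TMM, robust quasi-likelihood F-test, Benjamini-Hochberg adjustment), and checked on simulated counts. SEs are the fold change over the square root of F. Levels are CPM, counts per 1000000 after TMM over 12 libraries on genes in both tables. Scores use log2(CPM + 0.5). Alternatives were DESeq2 1.42.0, median-ratio factors, no filter, 1 fit of 12 libraries, levels without TMM and libraries left out. Shares of all genes under an unadjusted p are edgeR's, and none is given for DESeq2. No library pair within a group matched within counting noise (chi-square per degree of freedom 27.4 to 189). Named with all values are the 4 members of smallest p in each comparison and a set list of 16 members, and from pathway lists the 2 of smallest p in each main comparison. Marker lists are given by counts and sums, with names only of genes that edgeR or DESeq2 called or, for macrophages, that had an unadjusted p under 0.05 (chosen after their values were seen), fewer than the rule asked for, and of the identity and stress genes Vil1, Alb and Hsp90aa1. Promoters are from RefSeq, GRCm38.p6. Coordinates are those of the tables, GRCm38, counted from 1. Totals of 4676718 to 20684369 counts limit the low genes most.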

Additional observations from a re-analysis of the deposited data

How the results depend on the processing

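No paired analysis was possible because the groups share no replicate numbers. With no filter on low counts, edgeR called 3 of 39 members in HFD against Chow (Irgm2, Oas1a and Oas2). In HFD PCN against HFD it called 3 of 39 (Oas2, Trim30a and Igtp). The number of genes tested without the filter is not given here, so no share stands beside these counts. It was at most the 28066 genes listed for HFD against Chow and the 26121 listed for HFD PCN against HFD. Over the whole table these fits called 351 genes in HFD against Chow and 843 in HFD PCN against HFD Vehicle. In HFD Vehicle against HFD they called 1 gene and in HFD PCN against HFD 746. DESeq2 called 134, 339, 32 and 403 genes in the same order, and 1 member, Oas2, in HFD PCN against HFD. One fit of all 12 libraries called 2, 34, 1 and 29 genes. Without HFD Vehicle 23 and 50 together, 2 genes were called in HFD PCN against HFD Vehicle and 6 in HFD Vehicle against HFD, the gamma medians there were -0.41 and -0.0119, and in HFD PCN against HFD Vehicle the log2 fold changes turned to -0.66 for Ifit1, -0.30 for Ifit3, -0.42 for Oasl2, -0.37 for Rsad2, 0.0012 for Irf7, 0.51 for Mx1 and 0.16 for Stat2. That fit leaves HFD Vehicle 55 alone in its group and assumes that it varies like the other libraries. Irgm1, close to 0 in the same comparison, turned to 0.017 with DESeq2, 0.0291 with no filter and 0.0011 in 1 fit of 12 libraries.

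With each library left out in turn, the genes called over the whole table ran from 4 to 63 in HFD against Chow, 0 to 3697 in HFD PCN against HFD Vehicle, 0 to 260 in HFD Vehicle against HFD and 1 to 452 in HFD PCN against HFD. The highest values came without HFD 38, HFD Vehicle 55, HFD Vehicle 55 and HFD 38. Members called ran from 0 to 6 in HFD PCN against HFD Vehicle and 0 to 1 in HFD PCN against HFD. In HFD against Chow the type I median ran from -0.23 to 0.88 and its distance from the gamma median from 0.26 to 1.13, both lowest without HFD 30. In HFD PCN against HFD the median of the members ran from -0.82 to -0.0856 and the distance between the class medians from -0.82 to -0.11, again nearest to 0 without HFD 30. Single members turned sign in HFD against Chow, with ranges of -0.36 to 1.04 for Ifit1, -0.11 to 1.28 for Isg15, -0.47 to 0.48 for Oasl2, -0.0328 to 1.47 for Rsad2, -0.0719 to 0.47 for Stat2 and -1.06 to 0.19 for Zbp1. In HFD PCN against HFD Vehicle the ranges were -0.43 to 0.0942 for Gbp2, -0.33 to 0.87 for Ifit1, -0.40 to 0.24 for Igtp, -0.25 to 0.21 for Irf7, -0.13 to 0.22 for Irgm1, -0.26 to 0.14 for Irgm2, -0.20 to 0.56 for Oasl2, -0.22 to 0.59 for Rsad2, -0.60 to 0.31 for Usp18 and -0.49 to 0.0932 for Zbp1. The cause was not tested. Median-ratio factors moved no class median beyond the spread between replicates, and levels without TMM, run for the 4 differences between class scores alone, moved none of these beyond it. Over the whole 300 bases of the promoters the ISRE share of the members, counted by gene, was 65.5% and the GAS share 24.1%. Low members in the shallow libraries HFD 4 and HFD Vehicle 55 rest on few reads, down to 1 count for Gbp6 in HFD 4.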
